A study of Homo sapiens with 2 samples.

Results

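The S100 genes described here are 10 members of the family of S100 calcium-binding proteins: S100A2, S100A4, S100A6, S100A8, S100A9, S100A10, S100A11, S100A14, S100A16 and S100P. They were taken by gene symbol from tables of 27685 genes, in which 21 S100 genes of the classic small type are listed. RNA-seq was available for 1 library of H2087 cells and 1 library of H596 cells. Both are established cell lines with the label lung adenocarcinoma, both were untreated, and both were grown in the same RPMI medium with fetal bovine serum. The estimated read counts summed to 46961500 in H2087 and 55387847 in H596. Levels are given as FPKM, a read density scaled to transcript length and library size, which allows genes of different length to be compared.

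S100 proteins are small proteins with a pair of EF-hand calcium-binding sites, and most of them work as dimers. Calcium opens a surface on the dimer that binds partner proteins such as annexins and cytoskeletal proteins. Several S100 proteins are also released from cells and bind surface receptors such as RAGE and TLR4. Most of the genes lie together on chromosome 1 in the epidermal differentiation complex, beside genes of the outer layer of the skin. Many members are active in epithelia and their tumors, while S100A8 and S100A9 are best known from neutrophils and monocytes.

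Of the 10 S100 genes, 5 were at least 2-fold higher in the H596 library (S100A2, S100A8, S100A9, S100A10 and S100A11). Another 3 were at least 2-fold lower (S100A4, S100A6 and S100P), and S100A14 and S100A16 were on neither side. A gene was counted when log2(FPKM + 1) differed by at least 1. The filter was an FPKM averaging 1 or more over both libraries, which 13048 genes passed, among them all 10 S100 genes. S100A8, with a count of 0 in H2087, passed through its H596 level alone. Its call as higher was therefore fixed by the filter. By the same rule 32.4% of all genes compared differed, 18.2% being higher and 14.2% lower in H596. The 10 genes were chosen with earlier results of these data known, so setting their counts beside these shares is not a test. The median difference was 0.76 for the 10 S100 genes and 0.12 for all genes compared. Each cell line had 1 library, so no difference has a replicate check and no statistical test was made. The 95% intervals given below cover counting error only. In bulk RNA, fewer cells of a type and less RNA per cell cannot be told apart.

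**Figure D1:**
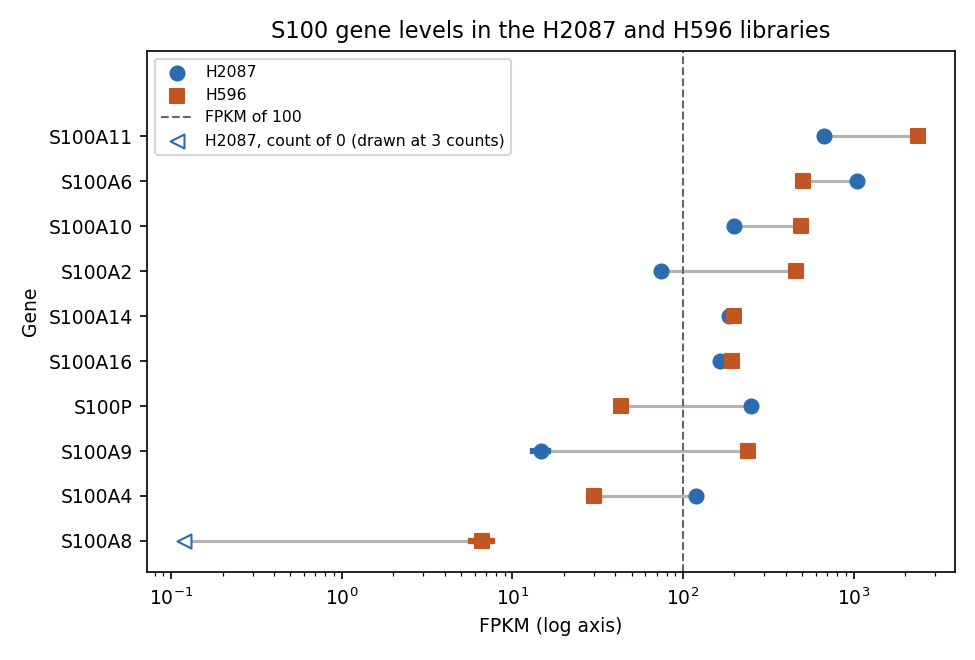
FPKM of the 10 S100 genes on a log axis, with 1 circle for the H2087 library and 1 square for the H596 library per gene, ordered by mean FPKM. Thick bars are 95% Wilson counting intervals, mostly narrower than the symbols, the dashed line marks an FPKM of 100, and the open triangle places S100A8 in H2087 at the FPKM that 3 counts would give. S100A9 moved from 14.6 to 240 and S100P from 250 to 43.2, while S100A14 stayed at 186 and 199.

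An FPKM of at least 100, the level at which the study took a gene as highly expressed, was reached by 7 of the 10 genes in H2087 and by 7 in H596. The share of all listed genes at that level was 2.54% in H2087 and 2.30% in H596. As the 10 genes were chosen with earlier results known, this comparison is not a test of the family. Among the 11 other S100 genes listed, the highest FPKM was 89.0 in H2087 and 69.3 in H596. S100A6, S100A10, S100A11, S100A14 and S100A16 were above an FPKM of 100 in both libraries. S100A4 and S100P were above it in H2087 only, S100A2 and S100A9 in H596 only, and S100A8 in neither. The summed FPKM of the 10 genes was 2727 in H2087 and 4540 in H596, which is 0.582% and 1.10% of the FPKM of all genes. Of these sums, S100A11 alone made up 668 and 2366.

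The order of the levels differed between the lines. In H2087 it ran from S100A6 through S100A11, S100P, S100A10, S100A14, S100A16, S100A4, S100A2 and S100A9 to S100A8. In H596 it ran from S100A11 through S100A6, S100A10, S100A2, S100A9, S100A14, S100A16, S100P and S100A4 to S100A8. The counting intervals of neighbours in this order did not overlap, except those of S100A14 and S100A16 in H596. S100A6 held 38.5% of the FPKM of the 10 genes in H2087 and 11.2% in H596, whereas S100A11 held 24.5% and 52.1%.

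**Figure D2:**
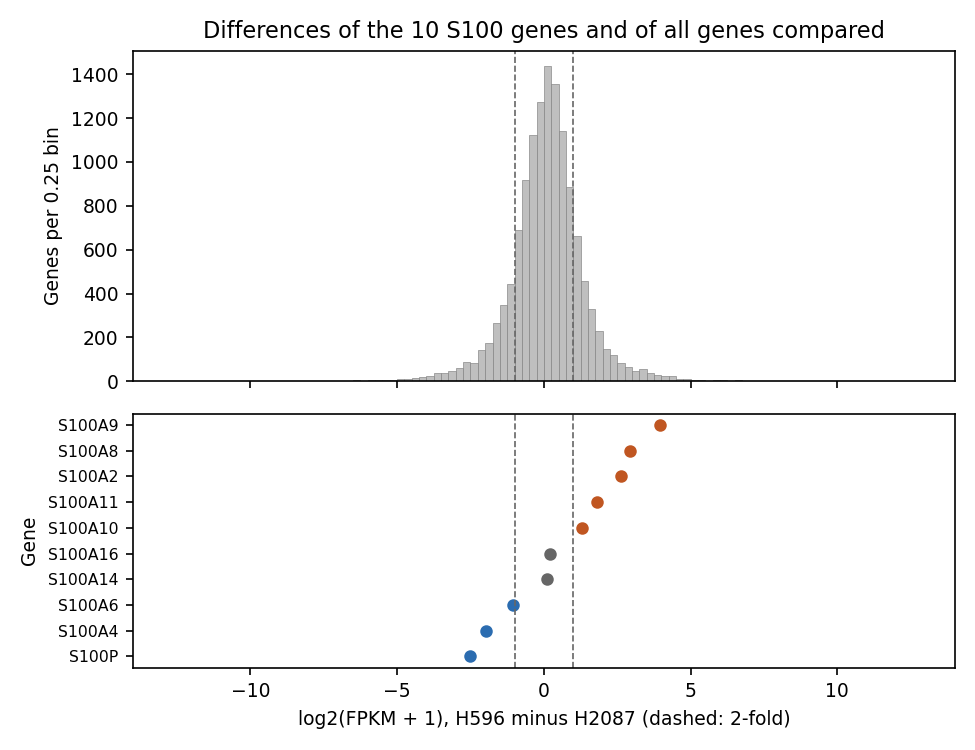
Difference of log2(FPKM + 1), H596 minus H2087, as a histogram over the 13048 genes compared (upper panel, bins of 0.25) and as 1 point for each S100 gene (lower panel). Dashed lines mark a 2-fold difference. The points range from -2.51 for S100P to 3.95 for S100A9, with 5 to the right of the lines, 3 to the left and 2 between them.

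The libraries were first set against markers of their labelled tissue, because several S100 genes follow epithelial type. The FPKM of NKX2-1, the lineage factor of lung adenocarcinoma, was 110 in H2087 against 0.508 in H596. NAPSA, an aspartic protease of alveolar cells, had 21.9 and 0.0645. Thus, the H596 library was close to 0 for both, although its label is lung adenocarcinoma. The surfactant genes SFTPB and SFTPC were at or below 22 counts in either line. KRT7, a keratin of glandular epithelium, was high in both libraries (791 and 608). Of the 4 epithelial markers, 3 were lower in H596, namely KRT8 (2493 and 536), KRT18 (3607 and 234) and EPCAM (375 and 65.0). The adhesion gene CDH1 was on neither side (52.3 and 59.6). All 5 squamous markers (TP63, KRT5, KRT6A, KRT14 and DSG3) were higher in H596, where their summed FPKM was 250 against 1.66 in H2087. KRT5, KRT14 and DSG3 had a count of 0 in H2087, and KRT14 was below the filter. The squamous markers were higher in H596, as were S100A2, S100A8, S100A9, S100A10 and S100A11. KRT8, KRT18 and EPCAM, but not CDH1, were lower in H596, as were S100A4, S100A6 and S100P. The part of these markers in the differences was not tested.

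S100A2, S100A8 and S100A9 are the members tied to squamous and stressed epithelium, and they differed most among those higher in H596. S100A9 (chr1:153330330-153333503, hg19), which pairs with S100A8 to form calprotectin, had 404 counts and an FPKM of 14.6 in H2087. In H596 it had 7872 counts and an FPKM of 240, a 16.5-fold higher level (95% counting interval 14.9 to 18.2). Its rank among all genes went from 4852 to 213.

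S100A8 (chr1:153362508-153395059, hg19) had a count of 0 in H2087 and 196 counts in H596, where its FPKM was 6.60 (interval 5.74 to 7.59). Against the FPKM of 0.119 that 3 counts would give in H2087, the level in H596 was 55.4-fold higher. The pair was therefore unequal in RNA, since S100A9 stood 36.4-fold above S100A8 in FPKM in H596. Of the 196 counts, 186 fell to 1 of the 5 listed transcripts, NM_002964. Both genes are markers of myeloid cells, and 7 other myeloid markers were looked up. PTPRC and FCGR3A were at 0 in both libraries, and the summed FPKM of the 7 was 2.09 in H2087 and 0.397 in H596. CSF1R made up most of the sum in H2087 (1.61, with a count of 0 in H596). ITGAM went from 0 to 40 counts and LYZ from 0 to 9, the direction of S100A8 and S100A9. The highest of the 7 in H596 was CD14 at an FPKM of 0.157.

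S100A2 (chr1:153533585-153538306, hg19), a target of p63 in basal epithelial cells, had 3406 counts and an FPKM of 73.9 in H2087. In H596 it had 25152 counts and an FPKM of 461, 6.24-fold higher (6.02 to 6.47). TP63, the basal lineage factor, had 46 counts in H2087 and 14447 in H596, with an FPKM of 0.183 and 55.2. S100A2 and TP63 were both higher in H596, and a link between them was not tested.

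S100A10 and S100A11 bind annexins, were above an FPKM of 100 in both libraries and were higher in H596. S100A10 (chr1:151955386-151966714, hg19), the light chain of the annexin A2 complex at the plasma membrane, had 10089 counts and an FPKM of 199 in H2087. The H596 library held 29572 counts at an FPKM of 494, 2.48-fold higher (2.42 to 2.53). Its main partner ANXA2 was at an FPKM of 1134 in both libraries (interval of the ratio 0.991 to 1.01). The ratio of S100A10 to ANXA2 in FPKM thus went from 0.176 to 0.436. AHNAK, a giant scaffold protein bound by that complex, was higher in H596 as well (19.5 and 109, 5.59-fold).

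S100A11 (chr1:152004982-152009511, hg19), which binds annexin A1, had 19008 counts and an FPKM of 668 in H2087. In H596 it had 79747 counts and an FPKM of 2366, 3.54-fold higher (3.49 to 3.60). It ranked 104 among all genes in H2087 and 6 in H596. ANXA1 went the other way, with 897 in H2087 and 428 in H596. The ratio of S100A11 to ANXA1 was therefore 0.744 in H2087 and 5.53 in H596.

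S100A4, S100A6 and S100P were lower in H596. S100P (chr4:6695566-6698897, hg19), the only one of the 10 outside chromosome 1 and a secreted ligand of RAGE, had 6108 counts and an FPKM of 250 in H2087. The H596 values were 1250 counts and an FPKM of 43.2, 5.79-fold lower (5.45 to 6.16). Its cytoskeletal partner EZR, which links actin to the membrane, was at 93.2 and 109. The receptor gene AGER, which codes for RAGE, was low in both (1.62 and 2.40).

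S100A4 (chr1:153516095-153518282, hg19), which binds non-muscle myosin and is linked to cell migration, had 2944 counts and an FPKM of 120 in H2087. In H596 it had 885 counts and an FPKM of 30.1, 3.97-fold lower (3.69 to 4.29). MYH9, the myosin heavy chain it binds, had 178 and 105. S100A4 is also used as a marker of fibroblasts, and the 5 fibroblast markers looked up had a summed FPKM of 3.90 in H2087 and 10.7 in H596. The greater part of the latter was DCN (9.77), while COL1A2 was at 0 in both libraries. COL1A1 was higher in H2087, as S100A4 was (3.89 and 0.916). The part of these markers in the difference was not tested.

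S100A6 (chr1:153507076-153508717, hg19), also called calcyclin, was the most abundant member in H2087, with 34374 counts and an FPKM of 1050. Its level in H596, with 19641 counts and an FPKM of 507, was 2.07-fold lower (2.04 to 2.11). This difference of -1.05 on the log2 scale lay just past the 2-fold line and shrank to -0.87 when FPKM was rescaled to TPM. Its partners CACYBP (55.8 and 31.7) and SUGT1 (23.6 and 11.9) were also lower in H596, by less than the 2-fold rule.

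S100A14 and S100A16 lie beside each other on chromosome 1 and had nearly the same level in both lines. S100A14 (chr1:153586732-153588808, hg19), found mainly in epithelial cells, had 9461 counts and an FPKM of 186 in H2087, and 11943 counts and 199 in H596. The ratio was 1.07 (1.04 to 1.10). On the log2 scale its difference of 0.09 was smaller than the shift of 0.12 over all genes compared, and it became -0.04 with TMM scaling and -0.02 after centring on that shift. S100A16 (chr1:153579359-153585644, hg19), a widely expressed member, had 9770 counts and 165 in H2087, and 13258 counts and 193 in H596, a ratio of 1.17 (1.14 to 1.20).

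Within S100A16 the transcripts from the downstream annotated start were lower in H596, while the upstream start differed by less than the 2-fold rule. The 4 listed transcripts begin at 2 positions, 3813 bases apart. Transcripts from the upstream start (position 153585644) were at 134 FPKM in H2087 and 189 in H596. Of these, NM_080388 was at 134 and 189, and NR_133645 at 0.349 and 0.149, which is lower in H596. Transcripts from the downstream start (position 153581831) had 31.3 and 3.85. The downstream start thus made up 18.9% of the gene in H2087 and 1.99% in H596, and both of its transcripts were lower in H596. The division of reads between overlapping transcripts is an estimate, and its error is not covered by the counting intervals.

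The 2 transcripts listed for S100A4 share 1 start position. NM_002961 was at 117 FPKM in H2087 and 26.7 in H596, and carried 97.8% and 88.8% of the gene. NM_019554 was at 2.66 and 3.37, so the lower level of S100A4 in H596 lay in the main transcript. S100A2, S100A6, S100A9, S100A10, S100A11, S100A14 and S100P have 1 listed transcript each.

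**Figure D3:**
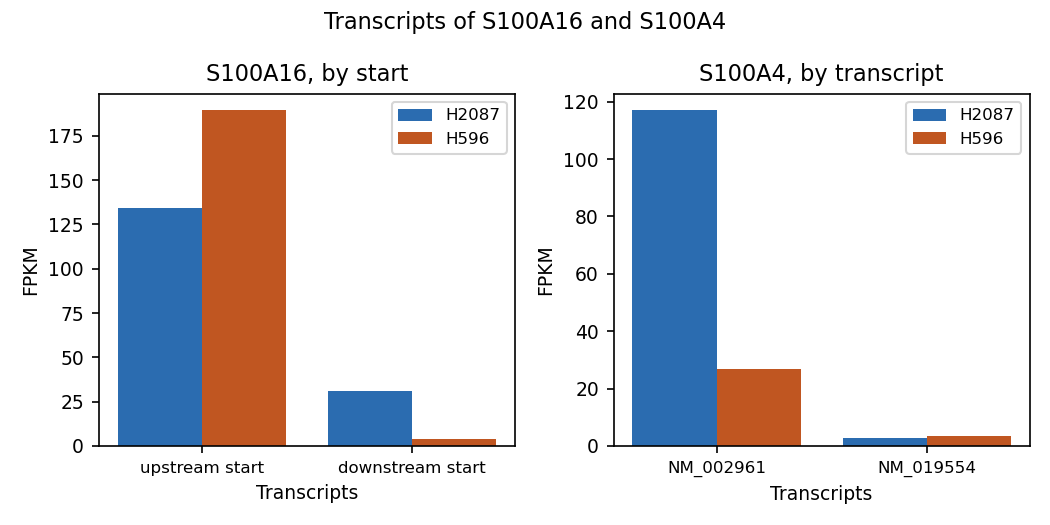
FPKM of the transcripts of S100A16, summed by annotated start (left), and of the 2 listed transcripts of S100A4 (right), with 1 bar for the H2087 library and 1 for the H596 library. For S100A16 the upstream start went from 134 to 189 while the downstream start went from 31.3 to 3.85, and for S100A4 the main transcript went from 117 to 26.7.

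The bases before the starts of the 10 genes were read from RefSeq promoters of GRCh38.p14, in which all 10 genes were found with 14 annotated starts. Sequences of 100 bases are shown for the genes that were higher or lower in H596. They are also shown for both starts of S100A16, whose shares of the gene differed between the lines. For S100A8, which has 3 annotated starts, the one with a TATAA is shown, and for S100A2 the more upstream of its 2. Each is written 5′ to 3′ on the gene's strand and ends at the base before the start. Capitals mark TATAA, each CG and the AP-1 type motif TGANTCA. S100A9 is at chr1:153357754-153357853 (plus strand), S100A8 at chr1:153391074-153391173 (minus), S100A2 at chr1:153565845-153565944 (minus), S100A10 at chr1:151993860-151993959 (minus) and S100A11 at chr1:152037005-152037104 (minus). S100P is at chr4:6693778-6693877 (plus), S100A4 at chr1:153545807-153545906 (minus) and S100A6 at chr1:153535992-153536091 (minus). The upstream start of S100A16 is at chr1:153613138-153613237 and its downstream start at chr1:153609356-153609455 (both minus).
S100A9: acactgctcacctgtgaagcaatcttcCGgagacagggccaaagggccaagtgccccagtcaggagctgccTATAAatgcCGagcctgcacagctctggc
S100A8: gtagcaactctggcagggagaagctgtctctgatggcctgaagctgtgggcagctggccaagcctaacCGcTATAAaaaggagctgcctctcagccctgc
S100A2: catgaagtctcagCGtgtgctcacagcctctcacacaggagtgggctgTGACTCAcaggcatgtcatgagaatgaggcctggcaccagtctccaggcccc
S100A10: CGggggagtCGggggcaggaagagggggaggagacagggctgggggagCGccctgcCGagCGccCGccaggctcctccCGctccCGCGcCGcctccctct
S100A11: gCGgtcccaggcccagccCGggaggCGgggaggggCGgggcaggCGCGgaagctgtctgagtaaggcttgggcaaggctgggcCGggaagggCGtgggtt
S100P: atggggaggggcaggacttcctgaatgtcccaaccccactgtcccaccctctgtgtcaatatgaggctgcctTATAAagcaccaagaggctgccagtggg
S100A4: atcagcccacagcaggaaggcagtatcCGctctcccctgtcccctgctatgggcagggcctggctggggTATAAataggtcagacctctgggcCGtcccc
S100A6: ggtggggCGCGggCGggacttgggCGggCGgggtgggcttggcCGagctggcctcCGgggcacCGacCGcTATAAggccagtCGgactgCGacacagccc
S100A16 upstream start: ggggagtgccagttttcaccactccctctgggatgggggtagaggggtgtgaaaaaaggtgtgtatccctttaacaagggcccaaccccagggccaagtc
S100A16 downstream start: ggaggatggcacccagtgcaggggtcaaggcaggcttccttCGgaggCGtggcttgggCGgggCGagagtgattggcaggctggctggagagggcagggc

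A TATAA within the 100 bases before a start, searched on the gene's strand only, was found for 6 of the 10 genes: S100A4, S100A6, S100A8, S100A9, S100A14 and S100P. In each it began 28 to 31 bases before the start. Over the table, 8.35% of 27305 genes and 13.2% of the 676 highly expressed genes (FPKM 100 or more in either library) had a start with this match, counted in the same way. At these RefSeq starts the match was present in 3 of the 3 genes lower in H596, in 2 of the 5 that were higher and in 1 of the 2 on neither side. Genes sharing the match there were thus lower, higher or on neither side.

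Most of the 10 genes had fewer CG dinucleotides before their starts than the median start of the table. In the 250 bases before the start, the 14 starts had a median of 4 CG. The median was 11 over all 35116 starts of the table and 20 over the starts of the highly expressed genes. The quartiles over all starts were 3 and 23, so a value of 4 lies within their middle range. The exceptions were the members with the highest mean FPKM over both libraries, with 24 CG for S100A6, 24 for S100A10 and 15 for S100A11. All other starts of the 10 genes had 7 or fewer, and the upstream start of S100A16 had 1. TGANTCA, which reads the same on both strands, was found in these 250 bases only for the upstream start of S100A2, 52 bases before it, and 6.57% of all starts had a match. These matches describe letters in a window at the annotated starts.

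The count of TATAA depended on which start was used. The same search was made on GRCh37 at the start of the leading deposited transcript of each gene. There, TATAA was found for 3 of the 10 genes (S100A4, S100A9 and S100A14), against 6.13% of 23526 genes. Of these, S100A4 was lower in H596, S100A9 was higher and S100A14 was on neither side. S100A6, S100A8 and S100P had no match at the deposited starts, so the split by direction given above holds only at the RefSeq starts. For S100A4, S100A8 and S100A9 the 250 bases before the deposited start were identical to those before a RefSeq start. For S100A8 that was not the start whose bases are shown above but another, with no TATAA. The transcript listed from that other start, NM_002964, held 186 of the 196 counts. The start shown above lies 115 bases further downstream, and no listed transcript of S100A8 begins there. The counts therefore cannot tell these starts apart. The median number of CG was 4.5 for the 10 genes and 13 for all genes at the deposited starts. TGANTCA was again found for S100A2 only.

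Along chromosome 1 the 9 other members fall into 2 stretches within the epidermal differentiation complex. From S100A10 to S100A1 the region spans 1.65 Mb and holds 69 listed genes, of which 18 passed the filter. Of these, 11 were higher in H596, 3 were lower and 4 were on neither side. Over all genes compared, 18.2% were higher and 14.2% lower, and the 18 include the 9 members already counted. S100A8 and TCHH had a count of 0 in H2087, so once past the filter they could only be called higher. S100A10 and S100A11 lie 38.3 kb apart at one end and were both higher. A gap of 1321 kb with 50 listed genes separates them from S100A9. Of the 7 compared genes that are no S100, 5 were higher in H596, among them IVL (1.83 and 18.1), which codes for involucrin of the cornified envelope, and SPRR3 (0.951 and 20.6), a small proline-rich protein of the same envelope. SPRR2D was lower (3.42 and 0.142).

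Beyond the gap, the genes compared are given in chromosome order, with those below the filter left out. Whether neighbours share a direction more often here than elsewhere was not tested. S100A9 and S100A8 were higher, S100A6 and S100A4 were lower, S100A3 and S100A2 were higher, and S100A16, S100A14 and S100A13 were on neither side. S100A6 and S100A4 are 7.38 kb apart, with S100A5 between them. S100A5 had 52 counts in H2087 and 0 in H596 and was below the filter. S100A4 and S100A2 are 15.3 kb apart and differed in opposite directions. S100A16 and S100A14 are 1.09 kb apart and differed little.

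**Figure D4:**
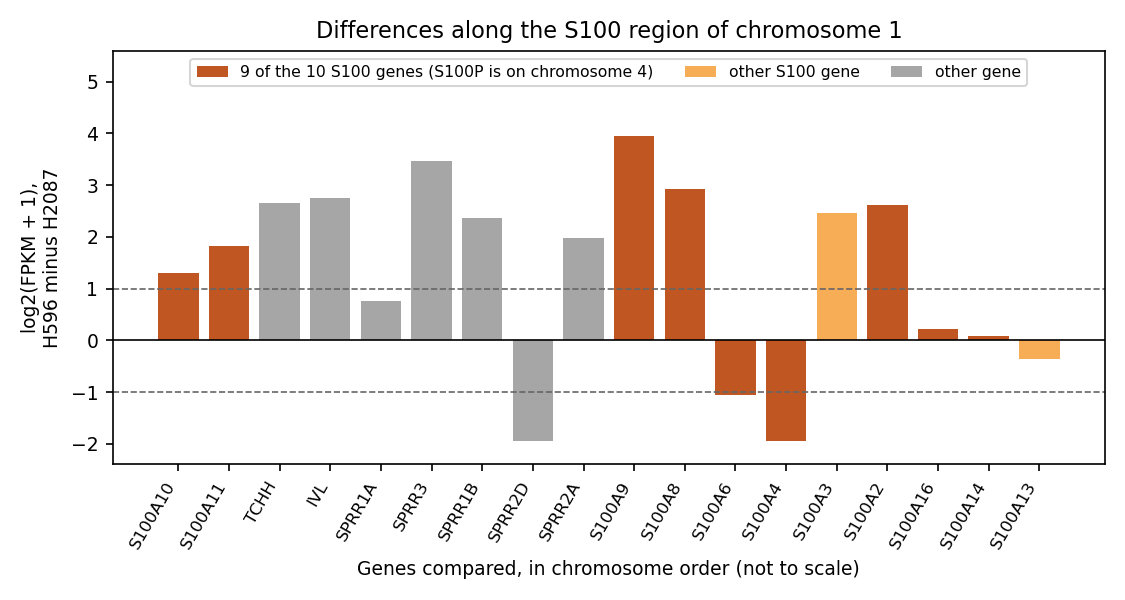
Difference of log2(FPKM + 1), H596 minus H2087, for the 18 genes compared of the S100 region of chromosome 1 in chromosome order, spaced evenly and not to scale. Dark bars are the S100 genes described here, light bars are other S100 genes, grey bars are other genes, and dashed lines mark a 2-fold difference. S100A6 and S100A4 stand below 0 between S100A8 and S100A3, both above it.

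Of the 11 other S100 genes listed, 2 passed the filter. S100A3 (0.678 and 8.21), a protein of the hair cuticle, was 12.1-fold higher in H596 (8.06 to 19.0). S100A13 (89.0 and 69.3), which takes part in the release of FGF1, was on neither side. S100A7, or psoriasin, had 0 counts in H2087 and 33 in H596. Its reads may be uncertain because similar copies lie beside it, which was not tested. S100A12, S100A7A, S100A7L2, S100B, S100G and S100Z had a count of 0 in both libraries. Among the 7 fused-type S100 genes, which code for large keratin-binding proteins, TCHH passed the filter, with 0 counts in H2087 and 2096 in H596.

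Of the 19 genes for partners, receptors and regulators of S100 proteins, 18 passed the filter, of which 4 were higher in H596, 2 were lower and 12 were on neither side. Their called share was 33.3%, near the 32.4% over all genes compared. Beside AHNAK and TP63, those higher were ALCAM (78.1 and 205), a receptor bound by S100A8 and S100A9, and PPP5C (17.0 and 38.0), a phosphatase activated by S100 proteins. Beside ANXA1, the one lower was LY96 (31.3 and 4.28), the co-receptor of TLR4. TLR4 itself had 2 counts in H2087 and 0 in H596. The receptor gene BSG, which codes for basigin, was abundant in both libraries (516 and 382).

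The listed S100 transcripts are short. The leading transcripts of the 10 genes had a median length of 638.5 bases (510 to 1206), against 2780 for the 21799 transcripts that averaged an FPKM of 1 or more. No transcript of another gene overlapped those of 8 of the 10 genes. S100A4 is overlapped by LOC101928034, with 4 counts in each library, and 1 transcript of S100A8 by S100A7A, with 0 counts in both.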

How the data were processed

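Total RNA of untreated H2087 and H596 cells was made into stranded mRNA libraries and sequenced on an Illumina HiSeq4000. The submitters' processing notes name bcl2fastq 1.8.4, Trimmomatic, HISAT2 2.0.5 and StringTie 1.3.3b with hg19. For each gene and transcript the authors deposited an FPKM value and an estimated count, FPKM being relative to transcript length and library size. How the estimated counts were made, whether reads were paired and whether strand was used in counting are not given in the sources used here. Intervals would be too narrow had both mates of a pair been counted.

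FPKM values were used as deposited, with a pseudocount of 1 on the log2 scale, which understates changes of low genes. Genes averaging an FPKM of 1 or more were compared, with a 2-fold rule. Intervals are 95% Wilson intervals for levels and exact (Clopper-Pearson) intervals for ratios (scipy 1.17.1), with 3 counts as the floor for a count of 0. The scripts were tested on simulated data. Alternatives included TPM and edgeR 4.0.16 TMM scaling (R 4.3.3). All members were named, with other genes taken from lists of S100 genes, binding partners and cell markers, or as neighbours on chromosome 1. Among neighbours, IVL, SPRR3 and SPRR2D were picked with their values known. The members and lists were chosen with earlier results of these data known. Promoter sequences are from RefSeq (GRCh38.p14) and were not converted to hg19; they were chosen after the starts of the deposited transcripts had been searched on GRCh37. The values of 1 gene of the partner list are not reported here.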

Additional observations from a re-analysis of the deposited data

How the results depend on the processing

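No paired analysis was possible because H2087 and H596 are represented by single libraries, so that leaving out a library was not possible either. Of 81 values recomputed under alternative settings, 44 stayed within their counting error or, for counts of genes, within 1.5-fold, 37 moved by more, and no called difference changed its direction. With a 4-fold threshold, 3 S100 genes were higher and 1 was lower in H596, and 10.1% of all genes compared were called. At an FPKM of 200, 3 S100 genes were highly expressed in H2087 and 5 in H596, against 1.09% and 0.982% of all genes. TATAA was found for 3 genes at the deposited starts and for 6 at the RefSeq starts, both searches being chosen after seeing the data. The share of the S100 genes was 0.203% in H2087 and 0.342% in H596 by estimated counts. It was 0.736% and 1.31% without mitochondrial and ribosomal protein genes. With TPM, S100A6 fell below the 2-fold rule and 2 genes were lower in H596. The median difference of all genes was 0.12 as deposited, 0.29 with TPM and -0.00 with TMM factors, and the higher share of all called genes was 56.2%, 64.2% and 48.8%. The difference of S100A8 ran from 2.81 to 6.07 with the scaling and the pseudocount, since its count in H2087 was 0. For the other 9 genes the settings moved the difference by at most 0.27 on the log2 scale. Differences between the lines were not compared with the spread between cultures, which 1 library per line does not give.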
